A study of Mus musculus with 12 samples.

Results

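The primary cilium and intraflagellar transport genes described here are 40 genes, found by their symbols among the 18269 genes of the deposited table, and all 40 were measured and passed the filter on low values. RNA was measured in mouse embryoid bodies (clusters that embryonic stem cells form as they differentiate) of strain C57BL/6. The groups were Gcn5-/- embryoid bodies at day 5, Gcn5 fx/fx embryoid bodies at day 5, Gcn5-/- embryoid bodies at day 3 and Gcn5 fx/fx embryoid bodies at day 3, each with 3 labelled samples; the series' design text mentions duplicates instead. Gcn5 (gene symbol Kat2a) is a histone acetyltransferase. The null line (4_C2) lacks it by its labels, and the floxed line (4_1) carries both copies flanked by loxP sites. Each genotype is a single line, so effects of genotype and of line cannot be told apart. The labels do not say that samples came from separate cultures, and p-values then measure only the spread between these samples, which may be technical.

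The primary cilium is a single antenna-like projection of the cell surface on which Hedgehog and other signals are received. Intraflagellar transport (IFT) carries its building blocks along the microtubule core: IFT-B particles travel to the tip behind the heterotrimeric kinesin, and IFT-A particles return with the ciliary dynein. The BBSome links membrane cargo to these trains, small ARL GTPases load and release that cargo, and the transition zone at the base acts as a gate. In the early mouse embryo, cilia are known from the epiblast onwards, and neural progenitors are ciliated.

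Per library, 18865848 to 24416832 reads were recovered at null day 5, 26160220 to 29446068 at floxed day 5, 18022071 to 26803369 at null day 3 and 23090915 to 26413938 at floxed day 3. Kat2a, the deleted gene, averaged 817 ± 67.5 normalised reads in null and 2207 ± 165 in floxed embryoid bodies at day 5, and 701 ± 122 in null and 2228 ± 151 in floxed at day 3 (SD, n = 3 each), so the targeted gene was lower in the libraries labelled null; which exons are deleted is not given in the sources used here. Its paralog Kat2b averaged 1754 ± 88.4 in null and 851 ± 163 in floxed at day 5, and 1595 ± 174 in null and 1431 ± 173 in floxed at day 3. Kat2a lies on chromosome 11, and genes of that chromosome were shifted upward in the null line: their median log2 difference, null against floxed, was 0.33 at day 5 and 0.36 at day 3 over 1332 genes. The cilium genes Ift20, Kif3a, Mks1 and B9d1 lie on chromosome 11 and are given apart from the other 36. Exons of 5 of the cilium genes overlap a measured gene on the opposite strand (Bbs4 with Adpgk, Bbs12 with Cetn4, Tmem67 with Rbm12b2, Tctn1 with Hvcn1, Cep290 with 4930430F08Rik). Whether counting used the strand is not given in the sources used here, so values of these 5 may hold reads of both genes.

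The cilium genes were measured above 0 in every library. Their normalised read counts lay between 84.7 (Bbs12, a floxed day 3 library) and 2519.7 (Dync2h1, a floxed day 5 library). Per kilobase of exon, the median gene had 116 normalised reads at null day 5, 109 at floxed day 5, 83.6 at null day 3 and 73.8 at floxed day 3. On this scale Rpgrip1l was the lowest gene at day 5, with 35.2 normalised reads per kilobase in null and 35.2 in floxed embryoid bodies, while Ift20 reached 408 at null day 5 and Ift74 389 at floxed day 5. Summed over the 40 genes, normalised reads numbered 23664, 24854 and 26123 (lowest, median and highest) at null day 5, against 17785, 18298 and 19815 at null day 3. The sums at floxed day 5 were 22914, 25119.7 and 25326, against 16615, 17053 and 17498 at floxed day 3. In both lines every day 5 library lay above every day 3 library, and the ranges of the 2 lines overlapped at day 5 and not at day 3, where the null sums lay above the floxed ones. The share of all recovered reads was 0.107% to 0.119% at null day 5 and 0.0731% to 0.0827% at null day 3, and 0.0978% to 0.110% at floxed day 5 and 0.0671% to 0.0730% at floxed day 3.

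The comparison of day 5 with day 3 asks how the cilium genes changed as the embryoid bodies differentiated. Most of them rose in both lines. In null embryoid bodies 28 of the 40 rose and 1 fell, where 22.6% of all genes tested rose and 21.9% fell, or 44.5% in either direction (limma, Benjamini-Hochberg adjusted p under 0.05). In floxed embryoid bodies 31 rose and none passed as lower, where 22.5% of all genes tested rose and 19.2% fell, or 41.7% in either direction; edgeR and DESeq2 also called 31 higher and 0 lower there, and 32 had an unadjusted p under 0.05, all of them higher. The median log2 change of the 40 was 0.47 in null and 0.53 in floxed, against 0.00 over all genes tested in each line. In null, all 3 day 5 libraries lay above all 3 day 3 libraries for 29 of the 40 genes (27.4% of all genes tested) and below for 2 (26.3%). In floxed they lay above for 34 (27.4%) and below for 1 (25.9%). With 1 library left out at a time, 25 to 27 genes passed in null and 25 to 28 in floxed. With upper-quartile scaling the floxed calls of Arl6, Ift43, Kif3b and Arl13b were lost (limma adjusted p 0.0607 to 0.0753) and 27 genes passed. When only the null groups were fitted, the null calls of Arl13b, Bbs10 and Ift46 were lost (adjusted p 0.0639 to 0.0950), and with only the floxed groups that of Arl13b (adjusted p = 0.0642).

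**Figure D1:**
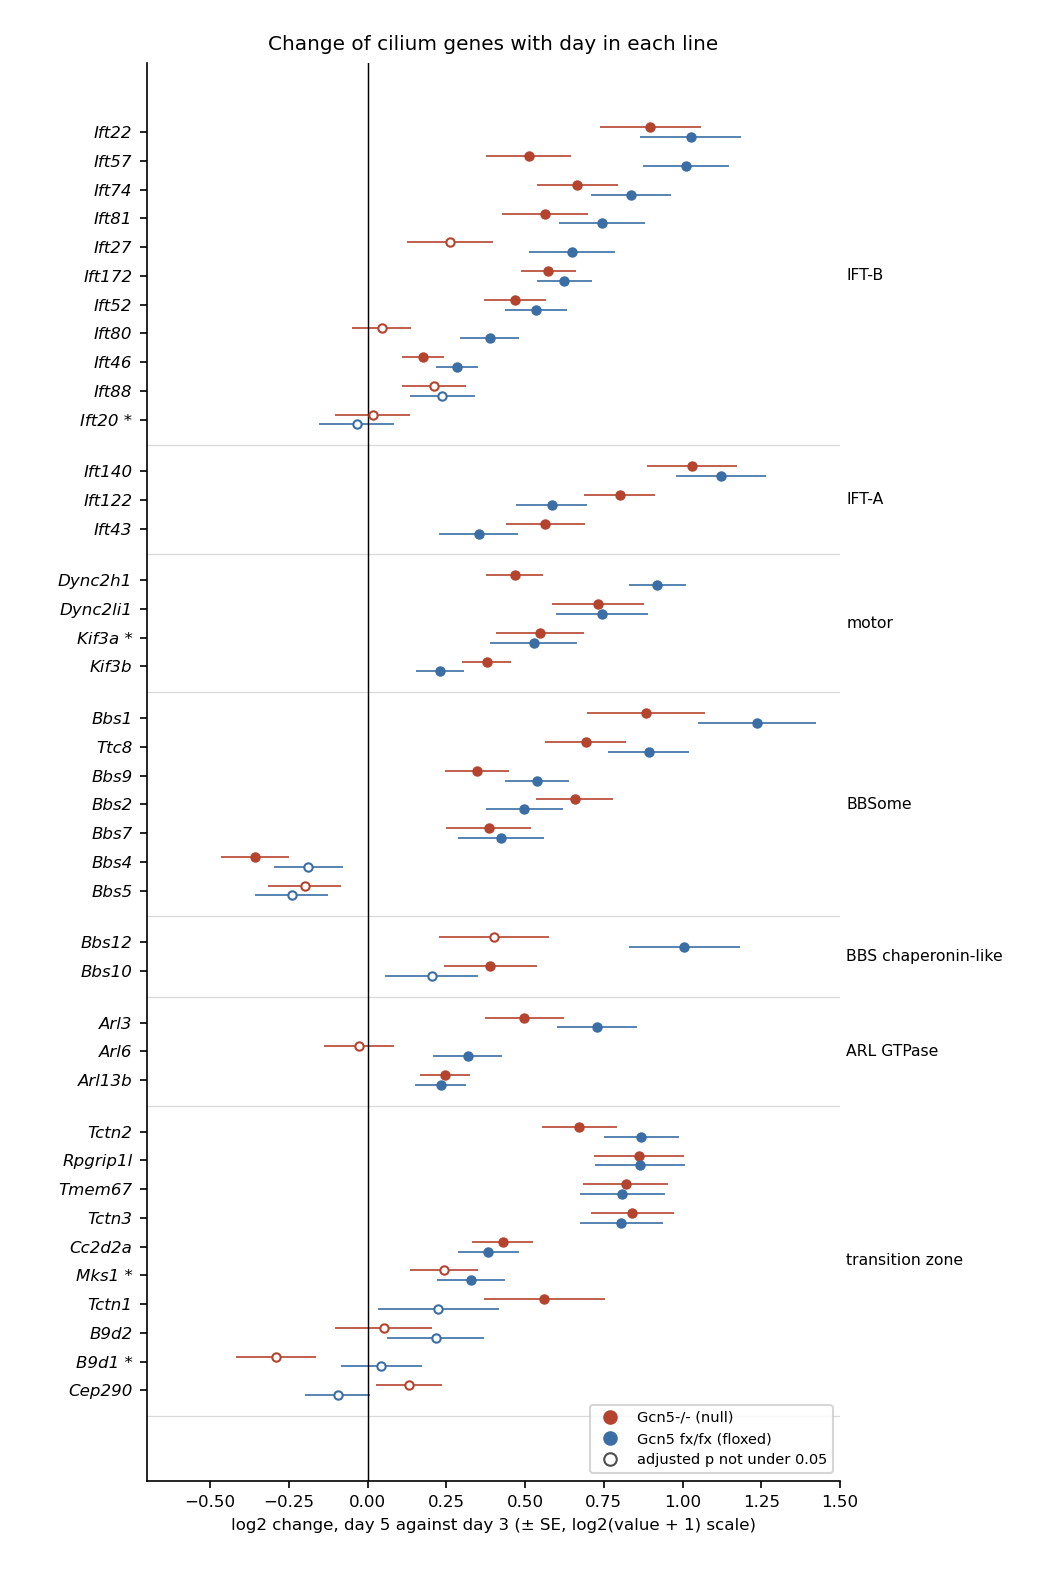
Log2 change from day 3 to day 5 (day 5 against day 3, ± SE from limma) of each of the 40 cilium genes, grouped by role, with null in red above floxed in blue; open symbols did not pass an adjusted p of 0.05 and an asterisk marks chromosome 11. Of the 40 genes, 26 passed as higher in both lines, and Bbs4 passed as lower in null.

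All 3 IFT-A members and all 4 motor members rose in both lines. Among IFT-A genes, Ift140 (ENSMUSG00000024169.15, chromosome 17, 25016085 to 25099495, mm10), a scaffold of the retrograde particle, had 1243, 1298 and 1345 normalised reads in the 3 null libraries at day 5, against 632, 527 and 764 at day 3. In floxed embryoid bodies it had 1203, 1466 and 1359 at day 5, against 607, 518 and 736 at day 3. Every day 5 library exceeded every day 3 library of either line. The log2 change was 1.03 ± 0.14 in null (limma adjusted p = 0.000108) and 1.12 ± 0.14 in floxed (adjusted p = 5.74e-05). Ift122, another core IFT-A subunit, changed by 0.80 ± 0.11 in null and 0.58 ± 0.11 in floxed, and Ift43 by 0.56 ± 0.13 and 0.35 ± 0.13 on the log2 scale. The floxed call of Ift43 was lost on leaving out any of 5 of the 6 floxed libraries (all but day 5 replicate 3), with limma adjusted p of 0.0709 to 0.139.

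Dync2h1 (ENSMUSG00000047193.15, chromosome 9, 6928503 to 7184446), the heavy chain of the ciliary dynein, had 1979, 2112 and 1755 normalised reads at null day 5, against 1381, 1418 and 1416 at null day 3. At floxed day 5 it had 2069, 2519.7 and 2218, against 1101, 1228 and 1262 at floxed day 3. Both lines were higher at day 5 without overlap, by 0.47 ± 0.09 in null (limma adjusted p = 0.00118) and 0.92 ± 0.09 in floxed (adjusted p = 9.08e-06). Its light intermediate chain Dync2li1 rose by 0.73 ± 0.15 in null and 0.74 ± 0.15 in floxed. The kinesin motor subunits followed, Kif3a with 0.55 ± 0.14 in null and 0.53 ± 0.14 in floxed, and Kif3b with 0.38 ± 0.08 and 0.23 ± 0.08. The floxed call of Kif3b was lost on leaving out floxed day 3 replicate 1 or 3 or floxed day 5 replicate 1 or 2 (limma adjusted p 0.0578 to 0.0951).

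Of the 11 IFT-B genes, 7 rose in null and 9 in floxed, with median log2 changes of 0.47 in null and 0.63 in floxed. Ift22 (ENSMUSG00000007987.12, chromosome 5, 136908150 to 136915404), a Rab-like small GTPase of the particle, had 234, 250.5 and 237 normalised reads at null day 5, against 105, 127 and 159 at null day 3. Its floxed values were 245, 258 and 306 at day 5, against 121, 129.8 and 144 at day 3. Neither line overlapped between days, and the log2 change was 0.90 ± 0.16 in null (limma adjusted p = 0.000658) and 1.03 ± 0.16 in floxed (adjusted p = 0.000261). Ift57 (ENSMUSG00000032965.10, chromosome 16, 49699233 to 49765126), a peripheral IFT-B subunit, had 277, 289 and 279 normalised reads at null day 5, against 215, 185 and 193 at null day 3, and 255, 348 and 272 at floxed day 5, against 137, 137 and 155 at floxed day 3. The day 5 libraries were again the higher ones, by 0.51 ± 0.14 in null (limma adjusted p = 0.00804) and 1.01 ± 0.14 in floxed (adjusted p = 8.36e-05).

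The tubulin-binding pair Ift74 and Ift81 rose in both lines, Ift74 by 0.67 ± 0.13 in null and 0.84 ± 0.13 in floxed and Ift81 by 0.56 ± 0.14 and 0.74 ± 0.14. The large peripheral subunit Ift172 rose by 0.57 ± 0.09 in null and 0.63 ± 0.09 in floxed, and the core subunit Ift52 by 0.47 ± 0.10 and 0.54 ± 0.10. Ift46 had the smallest called IFT-B changes, 0.18 ± 0.07 in null and 0.29 ± 0.07 in floxed; its null call was lost on leaving out any 1 of the 6 null libraries (limma adjusted p 0.0588 to 0.117). Not every subunit moved. Ift88, the subunit mutated in the Oak Ridge polycystic kidney mouse, had 0.21 ± 0.10 in null (adjusted p = 0.108) and 0.24 ± 0.10 in floxed (adjusted p = 0.0783). Ift20, which also serves at the Golgi, had 0.02 ± 0.12 in null and -0.03 ± 0.12 in floxed.

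The BBSome genes did not move as 1 unit. Of its 7 genes 5 rose in each line and Bbs4 fell in null. Bbs1 (ENSMUSG00000006464.8, chromosome 19, 4886878 to 4906628), the subunit that binds ARL6 at the membrane, had 307, 331 and 318 normalised reads at null day 5, against 145, 169 and 208 at null day 3. In floxed embryoid bodies it had 289.6, 407 and 486 at day 5, against 157, 147 and 189 at day 3. Every day 5 library exceeded every day 3 library of its line, and the floxed day 5 libraries were the most spread. The changes were 0.88 ± 0.19 in null (limma adjusted p = 0.00205) and 1.24 ± 0.19 in floxed (adjusted p = 0.000212). Ttc8 (BBS8) rose by 0.69 ± 0.13 in null and 0.89 ± 0.13 in floxed; of the other subunits, Bbs2 rose by 0.66 ± 0.12 and 0.50 ± 0.12, Bbs9 by 0.35 ± 0.10 and 0.54 ± 0.10, and Bbs7 by 0.38 ± 0.14 and 0.42 ± 0.14. The Bbs7 call was lost on leaving out null day 3 replicate 1 or 3 or null day 5 replicate 1 or 2 (limma adjusted p 0.0583 to 0.145), or floxed day 3 replicate 2 or 3 or floxed day 5 replicate 2 (adjusted p 0.0644 to 0.101). For Bbs9 the null call did not hold when null day 3 replicate 2 was left out (adjusted p = 0.0628).

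Bbs4 (ENSMUSG00000025235.7, chromosome 9, 59321990 to 59353508), which also ties the BBSome to centriolar satellites, ran the other way. It had 358, 397 and 434 normalised reads at null day 5, against 502, 515 and 503 at null day 3, and 356, 397 and 407 at floxed day 5, against 497, 412 and 416 at floxed day 3. The day 5 libraries were below those of day 3 without overlap in both lines. The log2 change was -0.36 ± 0.11 in null (limma adjusted p = 0.0166) and -0.19 ± 0.11 in floxed (adjusted p = 0.186). Without null day 5 replicate 1 the null value was -0.29 with an adjusted p of 0.0650. Adpgk, the overlapping gene on the other strand, fell in both lines (-0.34 in null and -0.32 in floxed), and 3.21% of the exon bases of Bbs4 lie within its exons. Bbs5 had -0.20 ± 0.12 in null (adjusted p = 0.181) and -0.24 ± 0.12 in floxed (adjusted p = 0.114).

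**Figure D2:**
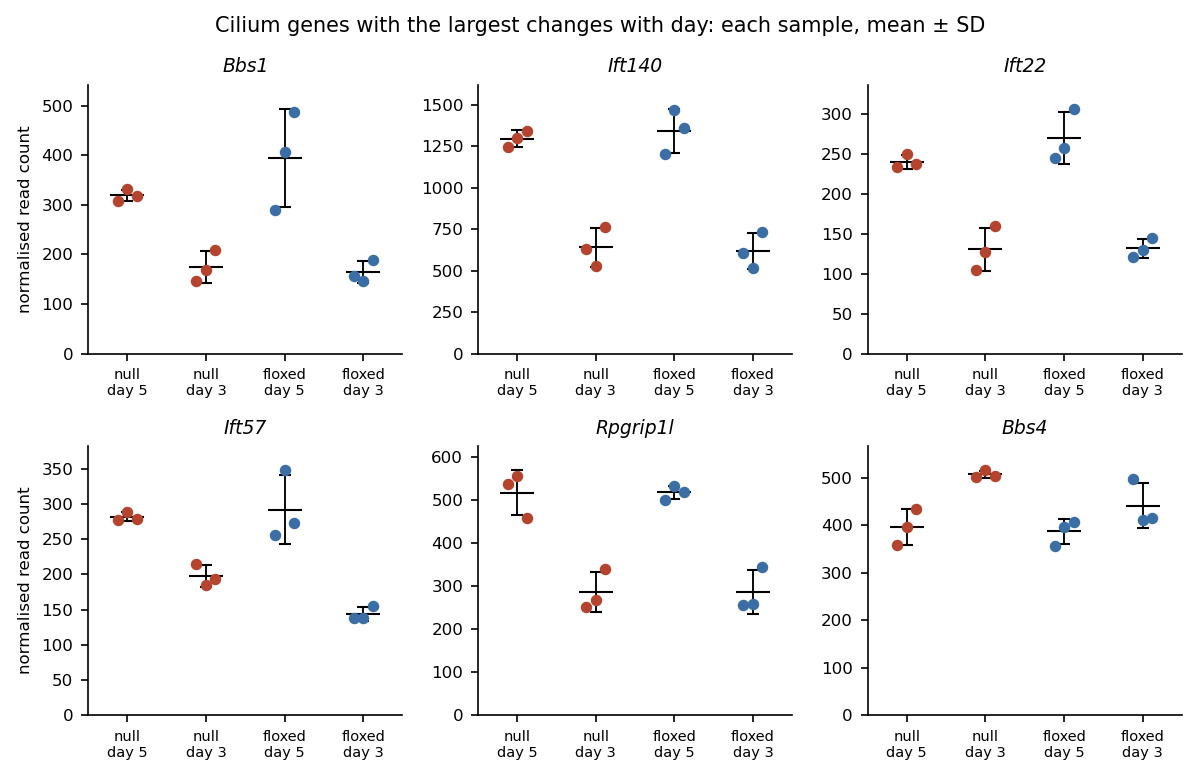
Normalised read count of each sample (points), with the mean ± SD of 3 (bars), for the genes with the largest called changes between days, in null day 5, null day 3, floxed day 5 and floxed day 3 embryoid bodies. The day 5 points lie above the day 3 points of the same line for Bbs1, Ift140, Ift22, Ift57 and Rpgrip1l, and below them for Bbs4.

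The chaperonin-like genes, whose products help assemble the BBSome, each passed in 1 line. Bbs10 rose by 0.39 ± 0.15 in null (limma adjusted p = 0.0471) and had 0.20 ± 0.15 in floxed (adjusted p = 0.296). Its null call was lost with replicate number as a block (adjusted p = 0.0511) and on leaving out replicate 1 or 2 of either null day (adjusted p 0.0742 to 0.201). Bbs12 had 0.40 ± 0.18 in null (adjusted p = 0.0800) and rose by 1.01 ± 0.18 in floxed (adjusted p = 0.000574).

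Among the ARL GTPases, Arl3, which releases lipid-modified cargo inside the cilium, rose by 0.50 ± 0.13 in null (limma adjusted p = 0.00629) and 0.73 ± 0.13 in floxed (adjusted p = 0.000557). Arl13b, which activates ARL3, rose by 0.25 ± 0.08 in null and 0.23 ± 0.08 in floxed. Arl6, which recruits the BBSome to membranes, had -0.03 ± 0.11 in null (adjusted p = 0.864) and 0.32 ± 0.11 in floxed (adjusted p = 0.0334). These smaller changes sat near the threshold: the Arl6 call was lost on leaving out any 1 of the 6 floxed libraries (limma adjusted p 0.0519 to 0.110). The Arl13b call did not hold when null day 3 replicate 3 or null day 5 replicate 2 was left out (adjusted p 0.0628 to 0.0756), or without any floxed library but day 5 replicate 1 (adjusted p 0.0598 to 0.0970).

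At the transition zone 6 of 10 genes rose in each line. Rpgrip1l (ENSMUSG00000033282.13, chromosome 8, 91217030 to 91313262), a scaffold of the gate, had 537, 556 and 459 normalised reads at null day 5, against 252, 266 and 339 at null day 3. It had 500.5, 532 and 519 at floxed day 5, against 256, 258 and 345 at floxed day 3. The lines were nearly superimposed, and each rose without overlap between days, by 0.86 ± 0.14 in null (limma adjusted p = 0.000408) and 0.87 ± 0.14 in floxed (adjusted p = 0.000404). The membrane protein genes Tmem67 (0.82 ± 0.13 in null and 0.81 ± 0.13 in floxed), Tctn3 (0.84 ± 0.13 and 0.81 ± 0.13) and the tectonic partner Tctn2 (0.67 ± 0.12 and 0.87 ± 0.12) also rose in both lines, as did the gate component Cc2d2a (0.43 ± 0.10 and 0.38 ± 0.10). Tctn1, another tectonic, rose by 0.56 ± 0.19 in null (adjusted p = 0.0301) and had 0.22 ± 0.19 in floxed (adjusted p = 0.377). That null call did not hold when null day 3 replicate 1 or 2 or null day 5 replicate 3 was left out (adjusted p 0.0559 to 0.117). Hvcn1, the overlapping gene on the other strand, fell in floxed (-0.90, limma adjusted p = 0.00121) and had -0.45 in null (adjusted p = 0.0506). Of the exon bases of Tctn1, 19.0% lie within exons of Hvcn1. The part of Hvcn1 reads in the Tctn1 values was not tested.

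Mks1, a B9-domain component of the gate, had 0.24 ± 0.11 in null (limma adjusted p = 0.0830) and rose by 0.33 ± 0.11 in floxed (adjusted p = 0.0258), a call lost without replicate 2 or 3 of either floxed day (adjusted p 0.0573 to 0.0909). Its B9-domain partners passed in neither line: B9d1 had -0.29 ± 0.13 in null (adjusted p = 0.0814) and 0.04 ± 0.13 in floxed, and B9d2 had 0.05 ± 0.15 and 0.22 ± 0.15. B9d1 passed as lower in null without null day 3 replicate 1 (-0.41, adjusted p = 0.0246) and after centring chromosome 11 (-0.33, adjusted p = 0.0327). Cep290, which links microtubules to the membrane at the gate, had 0.13 ± 0.10 in null and -0.10 ± 0.10 in floxed.

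Whether the change with day differed between the lines was tested by the genotype by day interaction. None of the 40 genes passed in limma, where 0.476% of all genes tested did; 5 had an unadjusted p under 0.05, and edgeR and DESeq2 also called 0. These 5 were Dync2h1 (-0.45 ± 0.13, adjusted p = 0.134), Ift57 (-0.50 ± 0.19, adjusted p = 0.262), Ift80 (-0.34 ± 0.13, adjusted p = 0.265), Bbs12 (-0.61 ± 0.25, adjusted p = 0.293) and Arl6 (-0.34 ± 0.16, adjusted p = 0.341), in log2 units of null minus floxed change, where a negative value is a smaller increase in null. The genes that passed in 1 line (Bbs10 and Tctn1 higher and Bbs4 lower in null; Ift27, Ift80, Bbs12, Arl6 and Mks1 higher in floxed) were therefore not shown to change differently in the other. A further 6 passed in neither line: Ift20, Ift88, Bbs5, B9d1, B9d2 and Cep290.

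Marker genes of several cell types moved between the same days. In bulk RNA, more cells of a type and more RNA per cell cannot be told apart. Summed normalised reads of 8 neural ectoderm markers were 5749 to 7992 at null day 5 and 3758 to 4933 at null day 3, and 9102 to 17225 at floxed day 5 and 4243 to 5322 at floxed day 3. Of these markers 5 rose in null and 7 in floxed. Summed reads of 8 extraembryonic endoderm markers were 3066 to 7777 at null day 5 and 1785 to 1922 at null day 3, and 3632 to 12377 at floxed day 5 and 686 to 2662 at floxed day 3. Of the endoderm markers 7 rose in null and 8 in floxed, and the highest single value was 8131 (Cubn). Summed reads of 6 measured fibroblast markers were 1146 to 2914 at null day 5 and 217 to 296 at null day 3, and 1019 to 2805 at floxed day 5 and 269 to 295 at floxed day 3. Of the fibroblast markers 4 rose and 1 fell in each line, and the highest single value was 2469 (Col1a2). The sum of 8 pluripotency markers ran the other way, although single markers did not all do so (5 fell and 1 rose in null, 5 fell and 3 rose in floxed). It was 5928 to 10466 at null day 5 and 26417 to 40586 at null day 3, and 12185 to 20623 at floxed day 5 and 32959 to 46535 at floxed day 3. The sum of 5 primed epiblast markers was 9622 to 12243 at null day 5 and 22067 to 29212 at null day 3, and 13708 to 17285 at floxed day 5 and 23543 to 32261 at floxed day 3, with 2 markers rising and 2 falling in each line. Dnmt3b made up most of this sum, with a highest single value of 27913. The median log2 change of the 5 markers was 0.19 in null and -0.03 in floxed. The sum of 5 measured primitive streak markers was 129 to 197 at null day 5 and 337 to 390 at null day 3, and 207 to 520 at floxed day 5 and 293 to 371 at floxed day 3. Of the streak markers 3 fell in null and 1 in floxed, and none rose (median log2 changes -1.14 and 0.25). The part of these cell types in the change of the cilium genes was not tested. Markers of multiciliated cells, which carry motile cilia, stayed low in every group: the sum of 7 measured markers was 206 to 271 at null day 5, 194 to 268 at floxed day 5, 257 to 342 at null day 3 and 223 to 241 at floxed day 3, with a highest single value of 120 (Ccno).

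Promoters are shown for 3 members because the RFX family of transcription factors is known to control many cilium genes through the X-box, and because most cilium genes rose with day. The X-box was searched as GTTNCCATGGNAAC, an inverted repeat that reads the same on both strands, in RefSeq promoter windows (GRCm38.p6) from 250 bases before to 50 after each start. A match allowed up to 2 differences from the 12 fixed letters. Windows were found for 35 of the 40 genes, and 8 of their 37 windows held a match (21.6%), against 1149 of 32851 windows of all genes (3.50%). With at most 1 difference the numbers were 3 of 37 (8.11%) and 321 of 32851 (0.977%). A match is a description of letters and not a site of binding. Ift80, Ift81, Ift122, Tmem67 and Dync2li1 had no window.

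The 8 matches are printed in the gene's direction, with capitals for letters that fit the motif and lower case for those that differ. The first base of the match lies 121 bases before the start in Bbs7, 24 before in Mks1, 62 before in Tctn2, 6 before in B9d1, 33 before in Ift22 and 87 before in Ift57. It lies 1 base after the first base of the transcript in Bbs1 and 36 bases after it in Tctn1.
Bbs7 (chr3:36613497-36613510, minus strand): GTTGCCtTGGAAAC
Mks1 (chr11:87853191-87853204, plus strand): GTTGCCAgGGGAAC
Tctn2 (chr5:124598687-124598700, plus strand): GTTACCATGGCtAC
B9d1 (chr11:61505138-61505151, plus strand): GTTTCCAaGaCAAC
Bbs1 (chr19:4906613-4906626, minus strand): GTTGCCAaGGCgAC
Ift22 (chr5:136908117-136908130, plus strand): GTcGCCgTGGAAAC
Ift57 (chr16:49699207-49699220, plus strand): GTTGCCgTGGTgAC
Tctn1 (chr5:122264411-122264424, minus strand): GTTGCCcgGGCAAC

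The 3 closest matches, each with 11 of the 12 fixed letters, stand in these 250 bases before the start of Bbs7, Mks1 and Tctn2, where capitals mark the whole match.
Bbs7 (chr3:36613390-36613639, minus strand): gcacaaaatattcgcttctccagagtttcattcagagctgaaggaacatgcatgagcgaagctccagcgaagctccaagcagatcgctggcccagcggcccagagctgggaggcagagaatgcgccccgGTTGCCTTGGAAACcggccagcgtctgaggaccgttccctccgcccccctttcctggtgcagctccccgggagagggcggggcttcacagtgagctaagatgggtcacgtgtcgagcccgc
Mks1 (chr11:87852965-87853214, plus strand): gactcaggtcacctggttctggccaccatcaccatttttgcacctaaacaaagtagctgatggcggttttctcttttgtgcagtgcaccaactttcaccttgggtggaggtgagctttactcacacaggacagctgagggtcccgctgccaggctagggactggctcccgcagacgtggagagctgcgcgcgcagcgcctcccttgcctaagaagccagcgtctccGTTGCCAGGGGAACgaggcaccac
Tctn2 (chr5:124598499-124598748, plus strand): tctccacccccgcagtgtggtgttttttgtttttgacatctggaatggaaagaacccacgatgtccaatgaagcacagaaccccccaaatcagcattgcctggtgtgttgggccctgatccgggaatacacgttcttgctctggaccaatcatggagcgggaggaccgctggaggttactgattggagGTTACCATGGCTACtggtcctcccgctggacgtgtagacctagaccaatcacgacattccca

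Members with and without a match both rose with day. Of the 8 with a match, 6 rose in null and 6 in floxed, with median log2 changes of 0.54 in null and 0.65 in floxed. Of the 27 with a window and no match, 18 rose and 1 fell in null and 20 rose in floxed, with medians of 0.40 in null and 0.50 in floxed. The RFX gene Rfx3, a regulator of cilium genes that was named here after its values were seen, averaged 1229.6 ± 116 normalised reads at null day 5 and 618 ± 118 at null day 3, and 1504 ± 173 at floxed day 5 and 553 ± 104 at floxed day 3 (SD, n = 3 each). It rose in null (limma adjusted p = 0.000202) and, by 1.45 ± 0.15 on the log2 scale, in floxed (adjusted p = 1.35e-05). Rfx3 belongs to a list of 10 tested RFX and other ciliogenesis factors that did not move in a single direction. Of these 10, 2 rose and 2 fell in null, and 3 rose and 3 fell in floxed (median log2 changes 0.03 and -0.11). The part of RFX factors in the change of the cilium genes was not tested.

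The comparison of null with floxed embryoid bodies asks how cilium genes differed between the lines at each day. The cilium genes were not tested as a set. At day 5, 3 of the 40 were higher and 5 lower in null, where 13.0% of all genes tested were higher and 13.5% lower, or 26.5% in either direction (limma adjusted p under 0.05). At day 3 only Mks1 passed, as higher in null, where 4.09% of all genes tested were higher and 2.03% lower, or 6.12% in either direction. With replicate number as a block, Kif3a, Ift20 and Bbs9 also passed as higher in null at day 3 (limma adjusted p 0.0121 to 0.0458). DESeq2 called Kif3a, Ift20, Bbs9 and Ift57 as higher there as well (adjusted p 0.0183 to 0.0399). The median log2 difference of the 40 was 0.05 at day 5 and 0.06 at day 3, against -0.02 and -0.00 over all genes tested. At day 5, 22 of the 40 lay above 0 (55.0%, against 48.0% of all genes tested), and at day 3, 28 (70.0%, against 49.3%). Off chromosome 11, 19 of 36 lay above 0 at day 5 (52.8%, against 45.3%) and 24 at day 3 (66.7%, against 46.0%). At day 5 the 3 null libraries lay above the floxed ones for 8 genes (19.8% of all genes tested) and below for 7 (22.2%), and at day 3 above for 10 (14.8%) and below for 2 (13.1%). The 3 genes that passed as higher in null at day 5 lie on chromosome 11, and the 5 lower ones lie elsewhere. Just outside the threshold, and on other chromosomes, Cc2d2a had 0.26 (adjusted p = 0.0607) and Kif3b 0.21 (adjusted p = 0.0661). Kif3b passed as higher in null in edgeR (adjusted p = 0.0436), and both passed in DESeq2 (adjusted p = 0.0430 for Cc2d2a and 0.0367 for Kif3b). With upper-quartile scaling 6 genes passed as higher and 4 as lower: Kif3b (0.24, limma adjusted p = 0.0343), Cc2d2a (0.30, adjusted p = 0.0383) and Cep290 (0.30, adjusted p = 0.0479), which all lie off chromosome 11, were added, and Bbs12 was lost. The gene 4930430F08Rik, whose exons cover 7.58% of the exon bases of Cep290 on the other strand, was also higher in null at day 5 (0.45, limma adjusted p = 0.0266). Its part in the Cep290 values was not tested.

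Of the chromosome 11 members, Mks1 (ENSMUSG00000034121.12, 87853215 to 87863803) had 576, 644 and 715 normalised reads at null day 5, against 393, 448 and 447 at floxed day 5. It had 509.6, 534 and 587 at null day 3, against 366, 322 and 336 at floxed day 3. Null was higher at both days with no overlap, by 0.58 ± 0.11 at day 5 (limma adjusted p = 0.00229) and 0.67 ± 0.11 at day 3 (adjusted p = 0.00378). Kif3a (ENSMUSG00000018395.19, 53567379 to 53601967) had 962, 1138 and 1209.6 normalised reads at null day 5, against 763, 758 and 815 at floxed day 5, and 646, 695 and 942 at null day 3, against 544, 476 and 608 at floxed day 3. The null libraries again lay above the floxed ones at both days, with differences of 0.50 ± 0.14 at day 5 (adjusted p = 0.0199) and 0.47 ± 0.14 at day 3, which did not pass (adjusted p = 0.0640). DESeq2 called Kif3a at day 3 (adjusted p = 0.0183), as did limma without null day 3 replicate 1 (adjusted p = 0.0453). The day 5 call of Kif3a was lost without floxed day 5 replicate 1 or 2 or null day 5 replicate 2 or 3 (adjusted p 0.0504 to 0.0754).

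Ift20 (ENSMUSG00000001105.15, chromosome 11, 78536361 to 78541737) had 543, 656 and 666 normalised reads at null day 5, against 478, 431 and 444 at floxed day 5, and 522, 625 and 702 at null day 3, against 492, 453 and 442 at floxed day 3. The null libraries lay above the floxed ones at both days, with differences of 0.46 ± 0.12 at day 5 (limma adjusted p = 0.0144) and 0.41 ± 0.12 at day 3, which did not pass (adjusted p = 0.0651). DESeq2 called Ift20 at day 3 (adjusted p = 0.0189), as did limma without null day 3 replicate 1 (adjusted p = 0.0275). Leaving out null day 5 replicate 2 or 3 removed the day 5 call (adjusted p 0.0537 to 0.0557). B9d1 (ENSMUSG00000001039.12, 61505144 to 61512931) did not share this pattern. It had 419, 494 and 481 normalised reads at null day 5, against 469, 483 and 536 at floxed day 5, and 481, 581 and 652 at null day 3, against 532, 491 and 424 at floxed day 3. Its groups overlapped at both days, with a difference of -0.09 ± 0.13 at day 5 (adjusted p = 0.628) and 0.24 ± 0.13 at day 3 (adjusted p = 0.290).

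Set beside their chromosome, the 4 genes had a median log2 difference of 0.48 at day 5 and 0.44 at day 3, against 0.33 and 0.36 for the 1332 tested genes of chromosome 11. At day 5, 550 of the 1332 were higher in null and 35 lower. After the values of chromosome 11 genes were centred in each sample on the chromosome's median deviation, none of Mks1 (0.25, limma adjusted p = 0.0790), Kif3a (0.16, adjusted p = 0.342) and Ift20 (0.12, adjusted p = 0.403) passed at day 5, and Mks1 did not pass at day 3 (0.31, adjusted p = 0.107). With this centring B9d1 passed as lower in null at day 5 (-0.43, adjusted p = 0.0173). With replicate number as a block, Kif3a (adjusted p = 0.0121), Ift20 (adjusted p = 0.0458) and the chromosome 9 gene Bbs9 (0.35, adjusted p = 0.0426) also passed as higher in null at day 3, which made 4 in all. The 36 genes on other chromosomes had a median of 0.04 at day 5 and 0.05 at day 3, against -0.04 and -0.02 for all genes elsewhere.

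**Figure D3:**
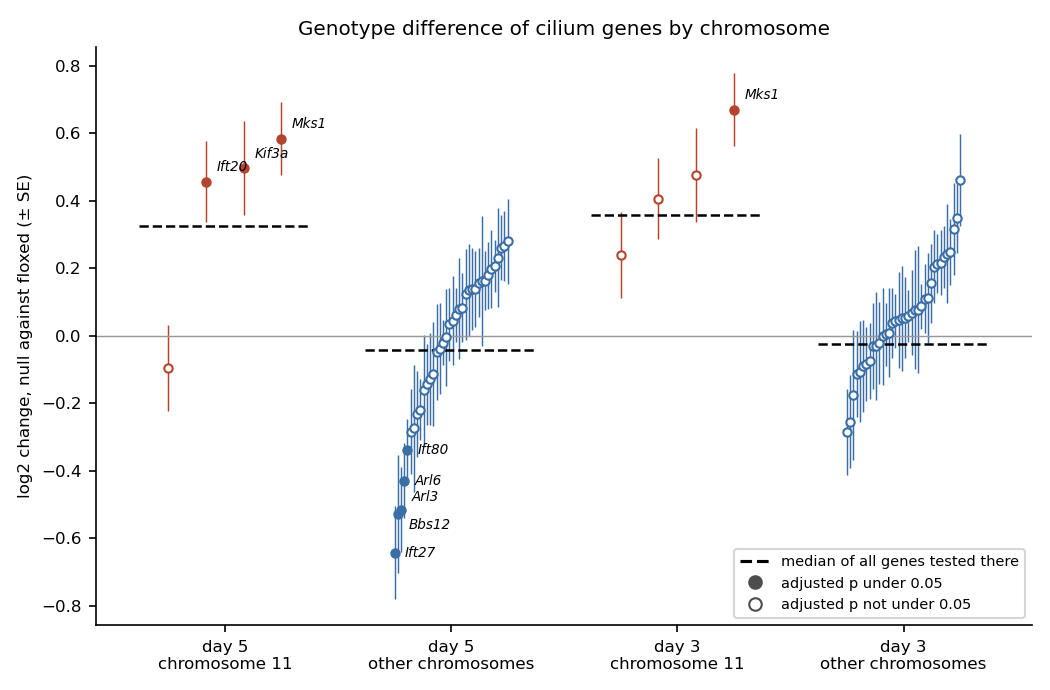
Log2 difference, null against floxed (± SE from limma), of the cilium genes on chromosome 11 (red) and elsewhere (blue) at day 5 and day 3, with filled symbols for an adjusted p under 0.05; dashed lines give the median of all genes tested on those chromosomes. Ift20, Kif3a and Mks1 lie above the chromosome 11 median at both days, and the 5 genes called lower at day 5 lie on other chromosomes.

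The 5 cilium genes lower in null at day 5 were 2 of IFT-B, 2 ARL GTPases and 1 chaperonin-like gene. Ift27 (ENSMUSG00000016637.6, chromosome 15, 78159463 to 78174107), a Rab-like GTPase of IFT-B needed for BBSome exit from the cilium, had 287, 355 and 329.8 normalised reads at null day 5, against 454, 508 and 557 at floxed day 5. At day 3 it had 227, 274 and 312 in null, against 294, 339 and 332 in floxed. All null libraries were lower at day 5, by -0.64 ± 0.14 on the log2 scale (limma adjusted p = 0.00513), while the groups overlapped at day 3 (-0.25 ± 0.14, adjusted p = 0.295). Arl3 (ENSMUSG00000025035.8, chromosome 19, 46531096 to 46573198) had 353, 458 and 446 normalised reads at null day 5, against 517, 623 and 654 at floxed day 5, and 282, 321 and 281 at null day 3, against 344, 356 and 377 at floxed day 3. The null libraries lay below the floxed ones at both days, with differences of -0.52 ± 0.13 at day 5 (adjusted p = 0.0105) and -0.29 ± 0.13 at day 3, which did not pass (adjusted p = 0.201). The day 5 calls of Ift27, Arl3 and Mks1 passed on leaving out each library in turn.

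Arl6 (ENSMUSG00000022722.18, chromosome 16, 59612949 to 59639391) had 314, 363 and 343 normalised reads at null day 5, against 442, 443 and 489.7 at floxed day 5, and 326, 392 and 324 at null day 3, against 380.4, 379.6 and 342 at floxed day 3. The lines were apart at day 5 (-0.43 ± 0.11, limma adjusted p = 0.0131) and overlapped at day 3 (-0.08 ± 0.11, adjusted p = 0.707). Ift80 (ENSMUSG00000027778.15, chromosome 3, 68892499 to 69004570), a peripheral IFT-B subunit, had 610.3, 696 and 672 normalised reads at null day 5, against 753, 819 and 937 at floxed day 5, and 640.3, 633 and 640.2 at null day 3, against 606, 640.2 and 664 at floxed day 3. It too was lower in all null libraries at day 5 (-0.34 ± 0.09, adjusted p = 0.0181) and level at day 3 (0.00 ± 0.09, adjusted p = 0.989). The Arl6 call was at 0.0501 without floxed day 5 replicate 3, and the Ift80 call was lost without floxed day 5 replicate 3 or null day 5 replicate 1 (limma adjusted p 0.0655 to 0.0782).

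Bbs12 (ENSMUSG00000051444.9, chromosome 3, 37312554 to 37321453) had 155, 155 and 127 normalised reads at null day 5, against 188, 190.2 and 257 at floxed day 5, and 114, 108 and 106 at null day 3, against 114, 84.7 and 115 at floxed day 3. Its day 5 groups did not overlap (-0.53 ± 0.18, limma adjusted p = 0.0410), and its day 3 groups did. This was the least firm of the calls: it was lost on leaving out any day 5 library but floxed day 5 replicate 2 (adjusted p 0.0522 to 0.163), with upper-quartile scaling (adjusted p = 0.0543) and when only the day 5 groups were fitted (adjusted p = 0.0657). With only those groups Ift80 was at an adjusted p of 0.0520. At day 3 none of the 36 genes off chromosome 11 passed in limma without the replicate block or in edgeR, and 8 had an unadjusted limma p under 0.05. With the replicate block Bbs9 passed as higher in null (limma adjusted p = 0.0426). DESeq2 called Ift57 (adjusted p = 0.0399) and Bbs9 (adjusted p = 0.0257) as higher in null.

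**Figure D4:**
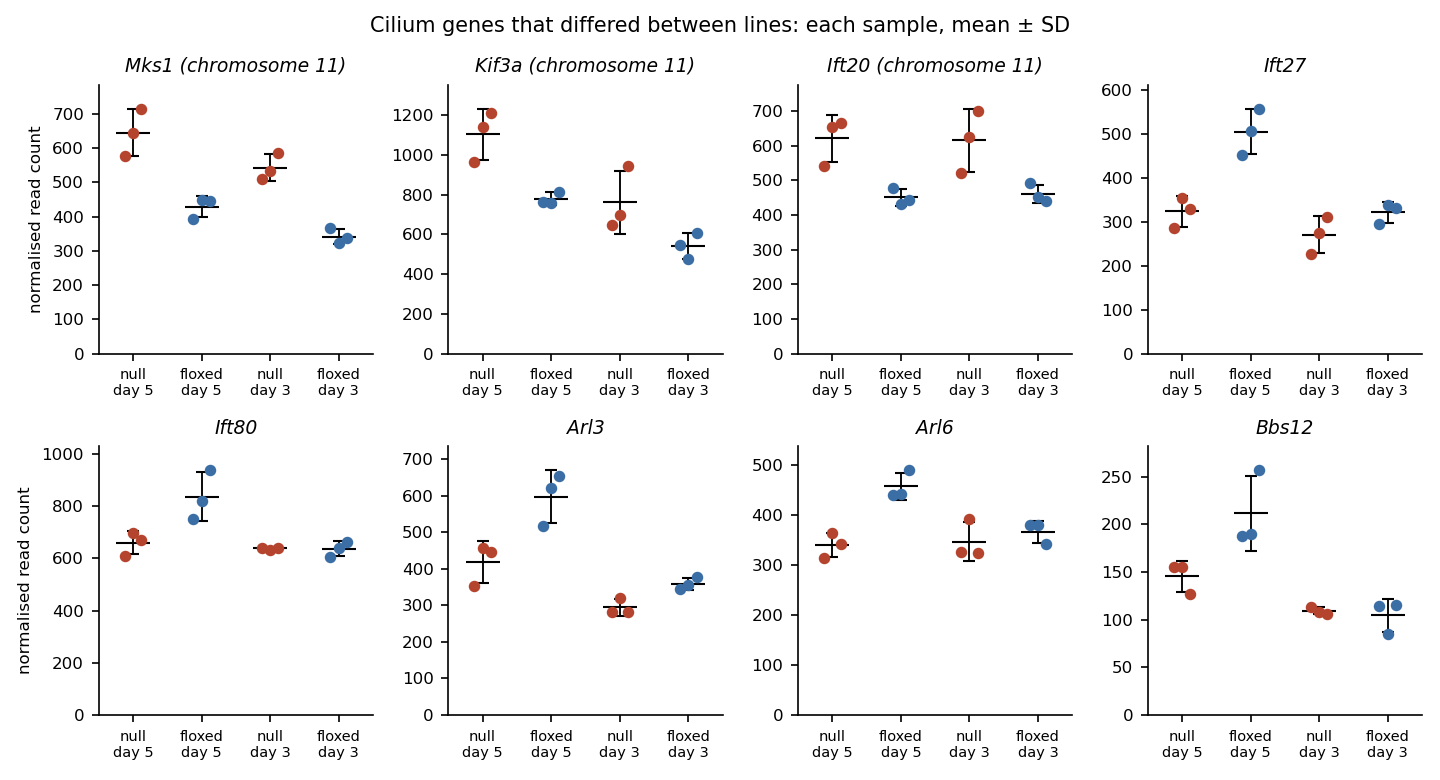
Normalised read count of each sample (points), with the mean ± SD of 3 (bars), for the 8 cilium genes that differed between the lines at day 5, in null day 5, floxed day 5, null day 3 and floxed day 3 embryoid bodies. For Mks1, Kif3a and Ift20 the null points lie above the floxed points at both days. In limma with all libraries and without the replicate block, only Mks1 passed at day 3 (adjusted p = 0.0640 for Kif3a and 0.0651 for Ift20). DESeq2 also called Kif3a (adjusted p = 0.0183) and Ift20 (adjusted p = 0.0189) at day 3. For Ift27, Ift80, Arl3, Arl6 and Bbs12 the floxed day 5 points are the highest of the 4 groups.

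Neural markers also differed at day 5, where their sum was 5749 to 7992 in null and 9102 to 17225 in floxed, and 3 of the 8 were lower in null. Pluripotency markers summed to 5928 to 10466 in null and 12185 to 20623 in floxed at day 5, with 5 of 8 lower in null. Primed epiblast markers summed to 9622 to 12243 in null and 13708 to 17285 in floxed (4 of 5 lower in null), and primitive streak markers to 129 to 197 in null and 207 to 520 in floxed (2 of 5 lower in null). None of these 4 sums overlapped between the lines. Their part in the lower Ift27, Arl3, Arl6, Ift80 and Bbs12 of the null line was not tested.

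Other genes of the cilium pathway, listed with earlier results of these data known, are given by counts, to be read against the 22.6% of all genes tested that rose and 21.9% that fell in null and the 22.5% and 19.2% in floxed. Of 19 further IFT and cilium motor genes, 7 rose and 5 fell in null and 6 rose and 2 fell in floxed (median log2 changes 0.26 in null and 0.07 in floxed). Of 6 further genes listed beside the BBSome and its chaperonins (Mkks, Bbip1, Lztfl1, Trim32, Wdpcp and Sdccag8), 4 rose in each line (medians 0.55 and 0.72). Of 15 further transition zone and nephronophthisis genes, 3 rose and 1 fell in null and 6 rose and 2 fell in floxed. Of 14 basal body genes, 4 rose and 3 fell in null and 7 rose and 2 fell in floxed. Of 15 ciliary membrane and ARL cargo genes, 5 rose and 2 fell in null and 3 rose and 2 fell in floxed. Of 10 RFX and other ciliogenesis factors, 2 rose and 2 fell in null and 3 rose and 3 fell in floxed. The lists were not tested against the members.

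Counts between the lines at day 5 are to be read against the 13.0% of all genes tested that were higher and 13.5% lower in null. The 19 further IFT and motor genes held 4 higher and 3 lower in null. Among them the IFT-B gene Hspb11, also known as Ift25 and the partner of Ift27, averaged 371 ± 21.9 normalised reads in null and 234 ± 60.3 in floxed (SD, n = 3 each). Hspb11 differed by 0.69 ± 0.16 (limma adjusted p = 0.00733). Its direction was thus opposite to that of Ift27. Traf3ip1 (-0.36 ± 0.09, adjusted p = 0.00949) and Dynll1 (-0.34 ± 0.07, adjusted p = 0.00627) of the same list were lower in null. In the list of ARL cargo and membrane genes 2 were higher and 5 lower in null. At day 3, 3 of its 15 genes were lower in null, where 2.03% of all genes tested were, and none was higher. Arl2bp, which binds ARL2 and ARL3, averaged 1481 ± 52.3 in null and 2348 ± 43.9 in floxed at day 5 (-0.66 ± 0.10, adjusted p = 0.000545), and at day 3 had -0.40 ± 0.10 (adjusted p = 0.0281). That day 3 call was lost without floxed day 3 replicate 3 or null day 3 replicate 1 or 3 (adjusted p 0.0733 to 0.0916) and with only the day 3 groups fitted (adjusted p = 0.0788). Pkd1, which encodes the ciliary membrane protein polycystin, averaged 822 ± 134 in null and 1477 ± 174 in floxed at day 5 (-0.85 ± 0.15, adjusted p = 0.00199), while Adcy3, the ciliary adenylyl cyclase, was higher in null (868 ± 32.8 in null and 463 ± 58.7 in floxed, 0.91 ± 0.13, adjusted p = 0.000461). Trim32 (BBS11), a ubiquitin ligase, was the lower member of the BBSome list at day 5 (771 ± 34.1 in null and 1167 ± 44.9 in floxed, -0.60 ± 0.08, adjusted p = 0.000470). At day 3 Trim32 also passed as lower (-0.34 ± 0.08, limma adjusted p = 0.0332). The day 3 call was lost without floxed day 3 replicate 2 or 3 or null day 3 replicate 1 or 3 (adjusted p 0.0843 to 0.123). Of the 14 basal body genes 3 were higher and 1 lower in null at day 5. Of the 15 further transition zone genes 3 were higher and 2 lower in null. Tmem107 (0.73 ± 0.12, adjusted p = 0.000991) and Nek8 (0.82 ± 0.15, adjusted p = 0.00243) were higher in null at day 5, and both lie on chromosome 11. Both day 5 calls were kept with the chromosome centred. At day 3 Tmem107 was also higher (0.73 ± 0.12, limma adjusted p = 0.00370), a call lost with the chromosome centred (0.37, adjusted p = 0.0915). Tmem216 was lower in null at day 5 (206 ± 27.9 in null and 299 ± 14.8 in floxed, -0.54 ± 0.14, adjusted p = 0.0151), a call lost without null day 5 replicate 1 (adjusted p = 0.0548).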

How the data were processed

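For every gene and sample the deposited table holds a signal, a read count that the authors scaled by the sample's size factor, as its values show. DESeq 1.16.0, HTSeq 0.6.0, TopHat2 2.0.10, CASAVA 1.8.2 and build mm10 appear in the submitters' processing notes with no roles; use of strand in counting is not given in the sources used here. Libraries were stranded total RNA, per the labels' protocols. Whole reads were recovered for 100% of values (tolerance 0.01). Symbols, positions and exon lengths were matched in a mouse annotation of mm10 by unversioned gene ID (18199 IDs had a symbol, 70 had none).

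The test was limma-trend (limma 3.58.1, R 4.3.3) fitted to log2(value + 1), with a mean for each of the 4 groups (12 samples, 8 residual and 5 prior degrees of freedom), two-sided. Benjamini-Hochberg adjustment ran over 17000 genes whose mean reached 10 in any group (1269 did not). Fold changes are on that scale, which understates those of low genes. "Rose", "fell", "higher" and "lower" are used of genes with an adjusted p under 0.05. The count tests edgeR 4.0.16 (quasi-likelihood) and DESeq2 1.42.0 on the recovered reads were alternatives: edgeR called 4490 genes between the lines at day 5, 1007 at day 3, 7426 between days in null, 7122 in floxed and 73 in the interaction. Other alternatives were upper-quartile scaling, another pseudocount, other filters, only the groups compared, the replicate block, chromosome 11 centred or left out, and each library left out.

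Replicate numbers come from the labels. Deviations from group means over genes correlated at r = 0.270 to 0.372 for same-numbered null and floxed samples at day 3 and 0.247 to 0.424 at day 5 (different numbers, at most -0.0175 and 0.0268), at 0.123 to 0.282 between days in null and 0.0814 to 0.214 in floxed, so the numbers paired samples between lines and between days in null. The main test did not use this pairing, and only the replicate block did. No 2 libraries were near copies.

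Members, gene lists and rules were chosen with earlier results of these data known. Values in every sample are given for members called between the lines and for the largest called changes in each direction between days (Dync2h1 was added after its values were seen). From the other lists at most 3 genes called between the lines are named. The X-box and its allowance of 2 differences were set after the member results were known. Scripts were tested on simulated data.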

Additional observations from a re-analysis of the deposited data

Results flagged for a closer look

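The dynein gene Dnah11, known from motile cilia of the node and airway and no member of the primary cilium genes, changed differently with day in the lines. It averaged 291 ± 49.2 normalised reads at null day 5 and 82.5 ± 20.3 at floxed day 5, and 47.7 ± 6.35 at null day 3 and 41.8 ± 1.87 at floxed day 3 (SD, n = 3 each). The test of the difference between the lines' changes gave 1.65 ± 0.30 on the log2 scale (limma adjusted p = 0.0366). It did not pass on leaving out any one of 10 libraries (adjusted p 0.0611 to 0.0966).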

How the results depend on the processing

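With 1 library left out at a time, the cilium genes called numbered 25 to 27 between days in null, 25 to 28 between days in floxed, 5 to 9 between lines at day 5, 1 to 3 at day 3 and 0 to 0 in the interaction; all genes called numbered 6282 to 7097, 5419 to 6862, 3225 to 4077, 426 to 779 and 3 to 115. The chromosome 11 members' median was 0.42 to 0.57 at day 5 and 0.31 to 0.55 at day 3, and with the chromosome centred 0.14 and 0.082. The 8 cilium genes between lines at day 5 became 5 without floxed day 5 replicate 3, 5 without null day 5 replicate 3 and 5 with chromosome 11 left out. The 1 at day 3 became 3 without null day 3 replicate 1, 5 with DESeq2, 0 with the chromosome centred and 0 with it left out. Of all genes, 1041 were called at day 3 (66.9% of them higher), against 1696 with DESeq2 (60.4% higher), 474 centred (47.7% higher) and 388 with chromosome 11 left out (46.1% higher); the interaction had 81, and 511 with DESeq2. With the replicate block, 4 cilium genes, 1866 genes in all at day 3 and 443 genes in the interaction were called; beside the calls given above, the block added Kif3b at day 5 (0.21, adjusted p = 0.0471) and Ift27 between days in null (0.26, adjusted p = 0.0436) and changed no other call of a cilium gene. With upper-quartile scaling the cilium genes at day 5 were 6 higher and 4 lower, against 3 and 5. The cause of these differences was not tested, except that centring or leaving out removes chromosome 11 by construction. Over the single cilium genes, 3274 values stayed on their side of the threshold, 80 lost a call, 26 gained one and no called value reversed. Depth was not limiting for detection, since the lowest cilium gene value was 84.7 normalised reads; 3 samples a group limit the precision.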

Other observations

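Genes of motile cilia, which the primary cilium list leaves out, were measured for 16 genes. Of these 5 rose with day in null and 6 in floxed, where 22.6% and 22.5% of all genes tested rose. At day 5, 2 were higher in null (Dnah11 and Ccdc39), where 13.0% of all genes tested were. At day 3, 1 was higher in null (Tekt1, 32.0 normalised reads in null and 10.1 in floxed), where 4.09% of all genes tested were. Tekt1 lies on chromosome 11, and its day 3 call was lost on leaving out any 1 of the 6 day 3 libraries (limma adjusted p 0.0567 to 0.132) and with the chromosome centred (adjusted p = 0.111). Ccdc39, a ruler protein of motile axonemes, averaged 106 ± 3.36 normalised reads in null and 65.5 ± 7.05 in floxed at day 5 (SD, n = 3 each; 0.69 ± 0.18, limma adjusted p = 0.0134).

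The RFX gene Rfx2 averaged 125 ± 40.8 normalised reads in null and 249.6 ± 37.1 in floxed at day 5 (-1.03 ± 0.28, limma adjusted p = 0.0170), and 127 in null and 129 in floxed at day 3. The day 5 call was lost without floxed day 5 replicate 1 or 3 or null day 5 replicate 2 (adjusted p 0.0526 to 0.0719).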
